A study of Mus musculus with 6 samples.

Results

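Transcripts of 6 genes of the extracellular matrix, of guidance signals and of cell adhesion were followed in the neonatal ventricles of mice lacking miR-125b-1 in the heart muscle. The genes are Col3a1, Col6a3, Spon2, Sema3c, Ncam1 and Adam23. They are 6 of the 215 named genes in the table analysed here, and each has 1 probe set among its 271. Any other probe sets of these genes on the array are not analysed here. A value given for a gene is thus that of 1 selected probe set, and whether others would show the same is not known. The 6 genes were chosen by their measured difference in intensity between knockout and wild-type arrays, so that contrast is described here and not tested. The wild-type mice had the genotype aMHC-Cre with 125b1+/+, and the knockout mice had aMHC-Cre with 125b1f/f. Both groups thus carried the Cre transgene, and the floxed allele was the labelled difference between them. There were 3 arrays per group, each of total RNA from ventricles taken at postnatal day 1 (P1). The Cre is driven by the promoter of the α-myosin heavy chain gene, which is active in cardiomyocytes, whereas the RNA came from whole ventricles with all of their cell types. The floxed allele was built from genomic DNA of a 129S7/AB2.2 library and introduced into R1 embryonic stem cells, and the chimeras were bred to C57BL/6 mice. The arrays are described as independent experiments, and whether an array holds 1 pup or several is not given. Any spread between arrays may therefore be partly technical.

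The matrix of the heart is laid down mainly by fibroblasts. Fibrillar collagens give it tensile strength, and collagen VI forms fine filaments close to the cell surface. Secreted guidance proteins such as the semaphorins steer migrating cells through receptors on their surface, and adhesion proteins hold neighbouring cells together. Most of these genes are best known outside the heart muscle cell, in fibroblasts, in cells of the neural crest or in nerves. Of 66 markers listed for 8 cell types, among them fibroblasts, neurons with Schwann cells and ventricular cardiomyocytes, 0 are in the table analysed here. The tissue label and the makeup of the ventricles could therefore not be checked against markers. In whole ventricles, fewer cells of a type and less RNA per cell cannot be told apart.

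The mature product of the deleted locus is shown first, since the deletion is the labelled difference between the groups. The miR-125b strand made from the Mir125b-1 locus lies at chr9:41581940-41581961 (GRCm38.p6, plus strand). Its sequence in RefSeq, with the seed (bases 2 to 8) in capitals, is:
miR-125b-5p: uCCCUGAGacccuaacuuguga
The Mir125b-2 locus on chromosome 16 gives a mature strand with the same sequence and was not targeted, and the Cre acts in cardiomyocytes, so sources of this strand remained in the knockout ventricles. Levels of miR-125b are not analysed here. The transcripts of the 6 genes were not searched for the matching site, because their sequences were not used here.

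The table itself is a selection. Every one of its 271 probe sets differed between the group means by at least 1.00 on the log2 scale, and in 271 of them (100%) the 3 knockout arrays did not overlap the 3 wild-type arrays. Of the probe sets, 32.5% were at least 2-fold lower and 67.5% at least 2-fold higher in the knockout. The median over all probe sets was 0.54 higher (log2) on the knockout arrays. This shift cannot be checked against unchanged probe sets, so the differences of the genes are also given with every array centred on its median, in the text or in the plot of differences by scaling. A difference named below is that of mean log2 intensity, knockout minus wild-type, with the standard error (SE) from limma fitted on the whole table.

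Among the 6 genes, 4 were lower and 2 were higher in the knockout ventricles. The lower ones were both collagen genes, Spon2 and Sema3c, and the higher ones were Ncam1 and Adam23. The 4 lower genes had a median difference of -1.39 and the 2 higher genes one of 1.34, against -1.31 and 1.41 over the lower and the higher probe sets of the whole table. All 6 kept their groups apart, as did 100% of the table, so this follows from the selection. These directions held as deposited, with median centring and after quantile normalization. Centring could not have reversed them, since it moved every difference by the same 0.54 and each was at least 1.00 in size. The size of the 2 higher differences depended on the scaling. Ncam1 and Adam23 were both at least 2-fold higher as deposited, 0 of them with median centring and 1 after quantile normalization. Of all 271 probe sets, 183 (67.5%) were so as deposited, 66 (24.4%) with median centring and 65 (24.0%) after quantile normalization. These shares are of the whole table, which includes the 88 lower probe sets.

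**Figure D1:**
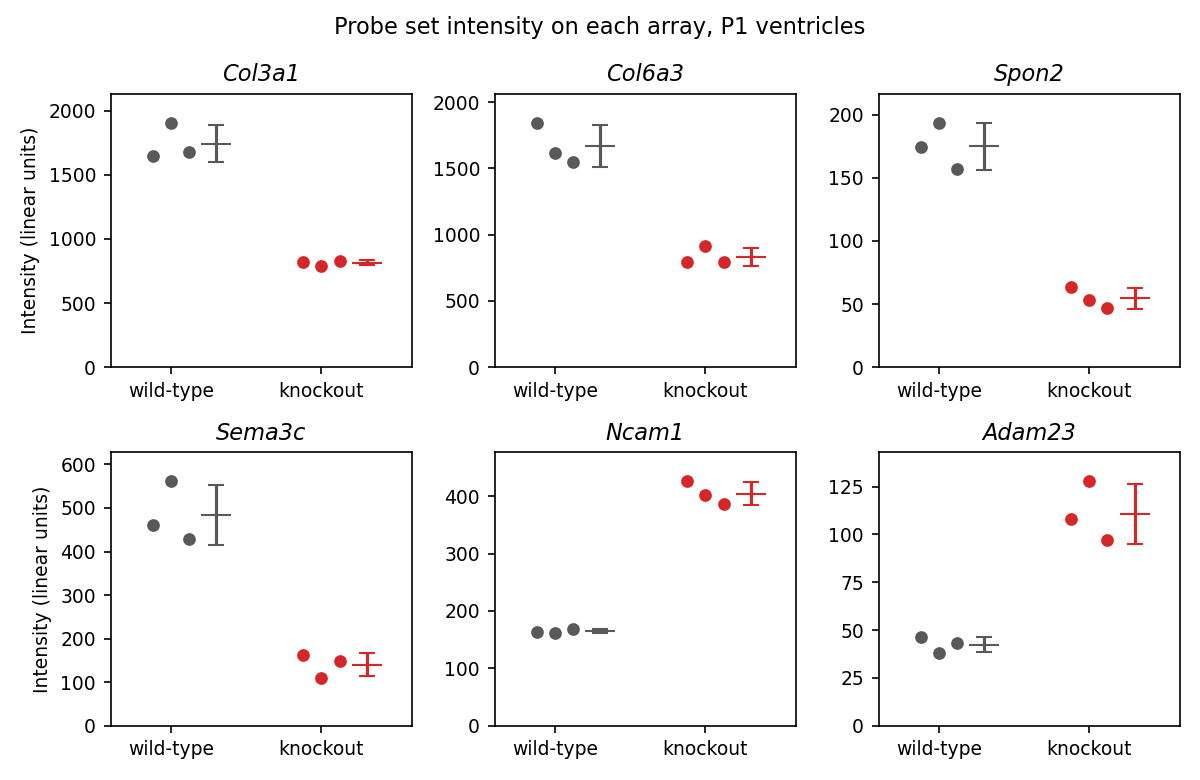
Probe set intensity of the 6 genes (y axis, linear units, each panel from 0) in 3 wild-type ventricle arrays (grey) and 3 knockout ones (red). Points are single arrays, and the bars beside them are mean and SD. The knockout arrays lie below the wild-type arrays for Col3a1, Col6a3, Spon2 and Sema3c and above them for Ncam1 and Adam23.

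Col3a1 encodes the chain of type III collagen, which forms fibrils together with type I collagen in elastic tissues. Its probe set read 1646, 1905 and 1679 on the wild-type arrays and 816, 792 and 831 on the knockout arrays. The lowest wild-type array was thus 1.98 times as bright as the highest knockout array. The mean intensity was 1743 ± 141 (SD, n = 3) in the wild-type and 813 ± 19.8 (SD, n = 3) in the knockout. The difference was -1.10 (SE 0.11), or 2.14-fold lower. The knockout arrays lay close together, within a 1.05-fold range, and the wild-type arrays within a 1.16-fold range.

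Col6a3 encodes a chain of collagen VI, the largest of its main subunits. Its probe set read 1844, 1618 and 1545 in the wild-type and 791, 912 and 793 in the knockout. The groups were apart by 1.69-fold at their nearest arrays. The means were 1669 ± 156 and 832 ± 69.2 (SD, n = 3 each). The difference of -1.004 (SE 0.12), or 2.01-fold lower, was the smallest of the 88 lower probe sets of the table. Col6a3 thus stands at the edge of what the table holds. Its difference was -0.93 without wild-type replicate 1, -0.97 without knockout replicate 1 and -0.97 without knockout replicate 3, each short of a 2-fold change. With each array centred on its median it was -1.55.

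Spon2 encodes spondin 2 (mindin), a secreted matrix protein that binds integrins and takes part in innate immune recognition. Its probe set read 175, 194 and 157 in the wild-type and 63.5, 53.4 and 46.9 in the knockout. No knockout array came within 2.47-fold of the dimmest wild-type array. The means were 175 ± 18.4 and 54.6 ± 8.38 (SD, n = 3 each), and the difference was -1.69 (SE 0.12), or 3.22-fold lower. The knockout values are near the lowest intensity of the table, 30.1, and whether they are above background is not known without detection calls. With an offset of 50 added before the logarithm the difference was -1.10.

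Sema3c encodes a secreted semaphorin that signals through neuropilins and plexins and is known for its role in the septation of the cardiac outflow tract by neural crest cells. Its probe set read 460, 561 and 428 in the wild-type and 161, 110 and 148 in the knockout. These were the widest ranges of the 6 genes, 1.31-fold within the wild-type and 1.47-fold within the knockout, and the groups were still apart by 2.65-fold. The means were 483 ± 69.4 and 140 ± 26.7 (SD, n = 3 each). The difference was -1.80 (SE 0.13), or 3.48-fold lower, the 12th largest of the 88 lower probe sets. Leaving out each array in turn gave -1.91 to -1.64.

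Ncam1 encodes the neural cell adhesion molecule, a member of the immunoglobulin superfamily that binds its like on neighbouring cells. Its probe set read 164, 162 and 169 in the wild-type and 426, 402 and 386 in the knockout. The arrays of each group agreed within a 1.04-fold and a 1.10-fold range, the narrowest of the 6 genes in the wild-type. The means were 165 ± 3.54 and 405 ± 20.1 (SD, n = 3 each), and the difference was 1.29 (SE 0.11), or 2.45-fold higher. With each array centred on its median it was 0.75, and after quantile normalization 0.78, so that it no longer reached 2-fold. RefSeq lists 33 transcripts for Ncam1, many of them predicted. The ending of its probe set, _a_at, marks probes shared between transcripts of 1 gene, so which form was higher cannot be told.

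Adam23 encodes a membrane protein of the ADAM family that lacks protease activity and serves in adhesion, mainly in the nervous system. Its probe set read 46.2, 38.0 and 43.0 in the wild-type and 108, 128 and 97.0 in the knockout. The lowest knockout array was 2.10 times as bright as the highest wild-type array. The means were 42.4 ± 4.12 and 111 ± 15.6 (SD, n = 3 each), and the difference was 1.38 (SE 0.12), or 2.61-fold higher. These are dim values, and the probe set was among the dimmest 25% of the table. The difference was 0.84 with median centring, 1.04 after quantile normalization and 0.80 with an offset of 50.

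**Figure D2:**
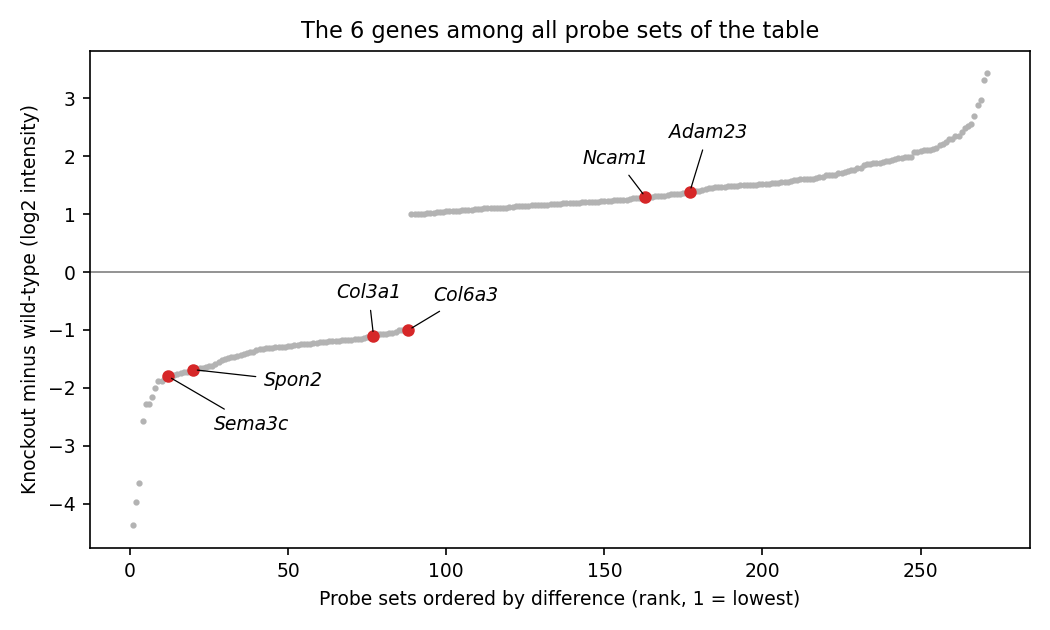
Difference between knockout and wild-type (y axis, log2 intensity) of the 271 probe sets in rising order (x axis, rank), with the 6 genes in red. Sema3c (-1.80) and Spon2 (-1.69) lie among the lowest, Col3a1 (-1.10) and Col6a3 (-1.004) at the end of the lower probe sets, and Ncam1 (1.29) and Adam23 (1.38) in the middle of the higher ones.

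As deposited, the differences of both collagen genes were smaller in size than those of Spon2 and Sema3c. These sizes are part of what chose the genes, so the comparison is a description. A shift of a whole array cancels when the difference of one probe set is subtracted from that of another. The gap was 0.09 (SE 0.15) between Col3a1 and Col6a3, 0.11 (SE 0.18) between Spon2 and Sema3c and 0.09 (SE 0.14) between the higher pair, Ncam1 and Adam23. These SE come from the arrays of the compared probe sets alone. Between Col3a1 and Spon2 the gap was 0.59 (SE 0.14) and between Col3a1 and Sema3c 0.70 (SE 0.16). With Col6a3 in place of Col3a1 these values were 0.68 (SE 0.18) and 0.80 (SE 0.27). With an offset of 50 the gap between Col3a1 and Sema3c was 0.44, whereas that between Col3a1 and Spon2 was 0.05, and after quantile normalization they were 0.68 and 0.39. Between Spon2 and Sema3c the gap was 0.29 after quantile normalization and 0.39 with the offset. The difference of Ncam1 minus that of Adam23 was -0.09 as deposited, -0.26 after quantile normalization and 0.28 with the offset. For Col3a1 minus Col6a3 these values were -0.09, -0.08 and -0.09. How far Spon2 stands from the collagens and from Sema3c, and Ncam1 from Adam23, thus depended on the processing.

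The other genes of these families were counted in lists written by hand. Of 43 collagen chains, 2 are in the table analysed here, Col3a1 and Col6a3. Of 71 matrix glycoproteins and proteoglycans, 2 are present, both of them lower. The second beside Spon2 was Vtn, or vitronectin, an adhesive protein of plasma and matrix. It went from 87.3 ± 3.26 to 36.2 ± 2.97 (SD, n = 3 each), a difference of -1.27 (SE 0.11). The knockout values of Vtn are near the lowest intensity of the table, 30.1, and whether they are above background is not known. Of 48 matrix enzymes and their inhibitors, 2 are in the table, with opposite directions. Serpinh1, the chaperone that collagen chains need to fold, was lower, with 3603, 3956 and 3257 in the wild-type and 1905, 1706 and 1554 in the knockout. Its difference was -1.07 (SE 0.12), on a probe set ending in _x_at, whose probes can bind unrelated transcripts. Timp3, a matrix-bound inhibitor of metalloproteinases, was higher, with 1085, 739 and 823 in the wild-type and 3339, 3218 and 2403 in the knockout. Its difference was 1.76 (SE 0.14), the largest of the genes in these lists that were higher, and 1.22 with median centring.

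Of 36 genes for semaphorins, their receptors and the proteins that relay their signals, 3 are in the table, and Sema3c was the single lower one. Sema5a, a semaphorin anchored in the membrane, was higher, at 79.8, 94.1 and 87.2 in the wild-type and 190, 191 and 179 in the knockout, a difference of 1.10 (SE 0.11). Dpysl3, a cytoplasmic protein of the collapsin response mediator family, had a difference of 1.29 (SE 0.12). Of 42 genes of netrin, slit and ephrin guidance, Ntn1 is in the table. It encodes the secreted guidance protein netrin, and its difference was 1.09 (SE 0.12). Ncam1 alone represents the 49 adhesion genes of the immunoglobulin family, and Adam23 the 25 genes of the ADAM family with its ligands. Of 59 genes of integrins and focal adhesion, 2 are present. Tns1, which links integrins to actin, was higher, with a difference of 1.05 (SE 0.12) on its brightest probe set and 1.61 on the other. Fblim1, a filamin-binding protein of adhesion sites, was lower, with a difference of -1.04 (SE 0.12). None of 52 cadherins and catenins was among those analysed here. In all, 14 of 425 listed genes are in the table, 7 higher and 7 lower, against 66.5% higher and 33.5% lower among all named genes. Without the 6 genes described above, 5 were higher and 3 lower. Members of the lists outside the table are not analysed here, so the share of each family that changed is not known.

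**Figure D3:**
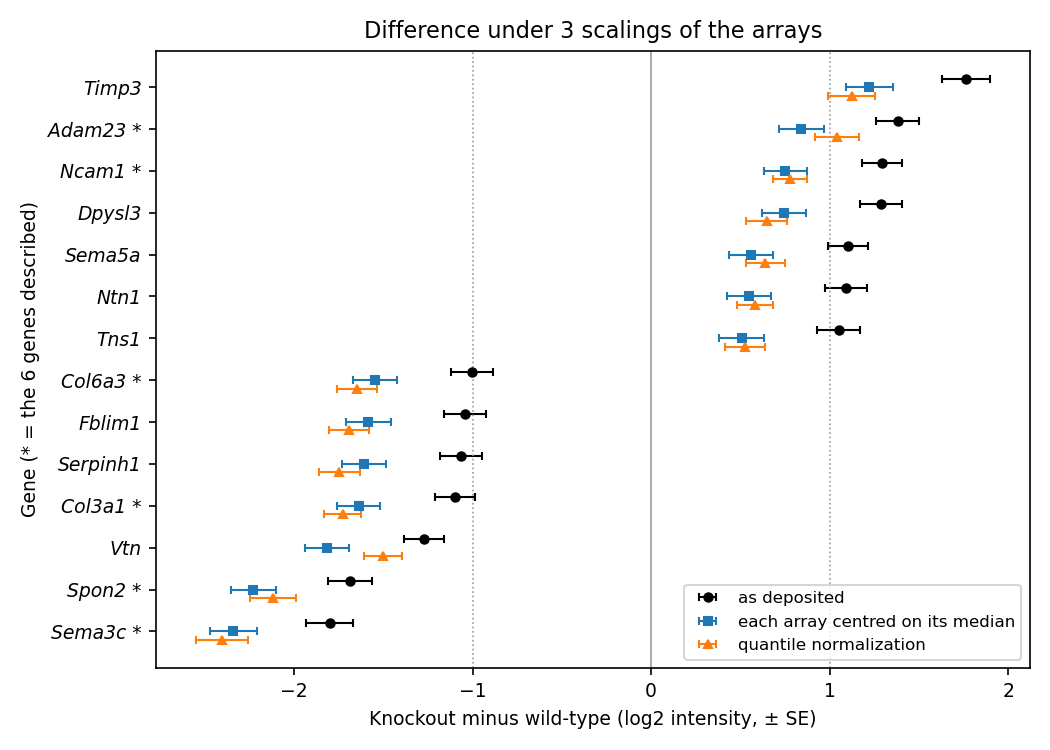
Difference between knockout and wild-type (x axis, log2 intensity, with SE as bars) of the 14 listed genes in the table, with arrays as deposited (black), centred on the median (blue) and quantile normalized (orange). The sign stays the same in all 14, which centring could not have changed, since every difference exceeded the common shift of 0.54. Higher genes such as Ncam1 move from 1.29 to 0.75 with centring and lower genes such as Col3a1 from -1.10 to -1.64.

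Further matrix genes of the table lie outside the lists, and their values had been seen when they were chosen. Those named here are examples and not a full count, so their directions do not describe such genes as a whole. The lower ones were Emilin2, an elastin-associated glycoprotein, with a difference of -1.52, Cthrc1, a secreted protein with a short collagen-like repeat, with -1.47, P3h4, a partner of the enzymes that modify collagen in the endoplasmic reticulum, with -1.19, and Dpt (dermatopontin), a collagen-binding protein, with -1.05. Their SE was 0.11 to 0.12. With median centring these differences were -2.06, -2.01, -1.73 and -1.59 in the same order. Of genes known to act on matrix or tendon genes without being part of the matrix, 2 were higher. They were Scx, a transcription factor of tendon and valve cells, with a difference of 1.24 on a dim probe set, and Zfp469, a zinc finger protein linked to collagen in the cornea, with 1.00, the smallest difference of the table. With median centring they were at 0.70 and 0.46.

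For each of the 6 genes the named gene with the most similar pattern over the 6 arrays was taken, by Pearson's r of log2 intensity. All points share the split between the groups, so r was high for any gene of the same direction. The lowest r among them was 0.90 to 0.96, depending on the gene. The closest gene to Spon2 was Serpinh1 (r = 0.999). The closest to Col3a1 was the α-tubulin gene Tuba4a (r = 0.999), to Col6a3 the chaperone gene Calr (r = 0.995) and to Sema3c the dehydrogenase gene Aldh9a1 (r = 0.995). The probe set of Calr, like that of Serpinh1, ends in _x_at. Kyat3 was closest to Ncam1 (r = 0.999) and Zfp346 to Adam23 (r = 0.998). With 6 arrays and so narrow a range of r, the order of genes below these is of little use.

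The genes lie apart in the genome (GRCm38.p6). Col3a1, Adam23 and Col6a3 are on chromosome 1, at chr1:45311538-45349706, chr1:63445717-63596111 and chr1:90766860-90844001. Sema3c and Spon2 are on chromosome 5, at chr5:17574816-17730268 and chr5:33213518-33218254. Ncam1, at chr9:49502129-49799393, is on the chromosome of the targeted locus, 7920127 bases from Mir125b-1. Within 10 megabases of that locus the table holds 2 genes, Ncam1 and Dixdc1, and both were higher, as were 66.5% of all named genes. Dixdc1, which was chosen after its values were seen, had a difference of 1.96 (SE 0.13), or 1.42 with median centring, against 1.29 and 0.75 for Ncam1. Chromosome 9 holds 7.35% of the protein-coding genes of the table and 5.49% of those of RefSeq. How far DNA of the stem cell strain extends around the floxed allele in these mice is not given in the sources used here, and its part in the values of Ncam1 was not tested.

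The promoters of 4 of the 6 genes, Col3a1, Col6a3, Sema3c and Adam23, were matched in the RefSeq table (GRCm38.p6, 250 bases before to 50 after the gene start). They are shown because the first 3 were lower together while Adam23 was higher, and because they differ in base composition. For Col3a1 and Sema3c the start used is the first base of the gene's span given above. For Adam23 it is position 63445891 and for Col6a3 position 90843971, both inside the span. Each is read along the strand of its gene, with CpG dinucleotides in capitals.
Col3a1, chr1:45311288-45311587, plus strand: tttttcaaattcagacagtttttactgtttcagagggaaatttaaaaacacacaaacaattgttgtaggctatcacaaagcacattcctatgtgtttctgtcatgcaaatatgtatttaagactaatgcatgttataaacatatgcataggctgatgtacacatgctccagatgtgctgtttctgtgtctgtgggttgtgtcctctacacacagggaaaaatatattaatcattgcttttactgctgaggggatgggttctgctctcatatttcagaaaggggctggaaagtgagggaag
Col6a3, chr1:90843922-90844221, minus strand: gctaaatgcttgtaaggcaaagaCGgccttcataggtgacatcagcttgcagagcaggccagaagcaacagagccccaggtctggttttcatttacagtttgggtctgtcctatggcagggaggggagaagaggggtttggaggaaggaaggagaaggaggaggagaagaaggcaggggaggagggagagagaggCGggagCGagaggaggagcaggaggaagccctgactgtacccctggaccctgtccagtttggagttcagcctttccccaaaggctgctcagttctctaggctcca
Sema3c, chr5:17574566-17574865, plus strand: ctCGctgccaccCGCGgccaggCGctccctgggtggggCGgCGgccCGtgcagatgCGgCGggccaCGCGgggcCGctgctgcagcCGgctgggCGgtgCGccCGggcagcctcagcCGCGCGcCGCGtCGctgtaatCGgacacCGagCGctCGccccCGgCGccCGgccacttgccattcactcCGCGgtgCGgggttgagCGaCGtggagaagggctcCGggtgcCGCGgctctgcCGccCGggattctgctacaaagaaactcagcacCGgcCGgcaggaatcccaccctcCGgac
Adam23, chr1:63445641-63445940, plus strand: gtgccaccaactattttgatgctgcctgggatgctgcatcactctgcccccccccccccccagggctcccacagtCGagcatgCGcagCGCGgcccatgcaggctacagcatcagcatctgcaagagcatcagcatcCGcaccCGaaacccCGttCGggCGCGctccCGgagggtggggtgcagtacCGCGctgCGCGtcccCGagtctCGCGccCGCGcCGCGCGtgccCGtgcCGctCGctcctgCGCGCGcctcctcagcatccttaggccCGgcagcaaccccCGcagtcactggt
The Col3a1 promoter holds 0 CpG dinucleotides and has a GC content of 37.7%, lower than all but 6.63% of the 32851 promoters of this length. The Col6a3 promoter holds 3, and the median promoter holds 7. Those of Sema3c and Adam23 are rich in CpG, with 42 and 31, more than 97.0% and 89.4% of all promoters. The lower genes therefore do not share a CpG class, and Sema3c is closer in composition to Adam23 than to the collagens. The 4 motifs searched on both strands do not overlap each other. TATAAA, the letters of a TATA box, occurs in Col3a1 at -117 from the gene start, and whether it acts as one was not tested. CAGACA, which SMAD proteins can bind, occurs there at -239 and, on the other strand, at -65. GGGCGG (the GC box of Sp factors) occurs 3 times in Sema3c, at -215, -159 and, on the other strand, -12. CCAAT was not found in the 4 windows. These motifs are held by 13.6%, 21%, 35.7% and 37.4% of all promoters, in the same order, so a match is common and describes the letters alone.

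**Figure D4:**
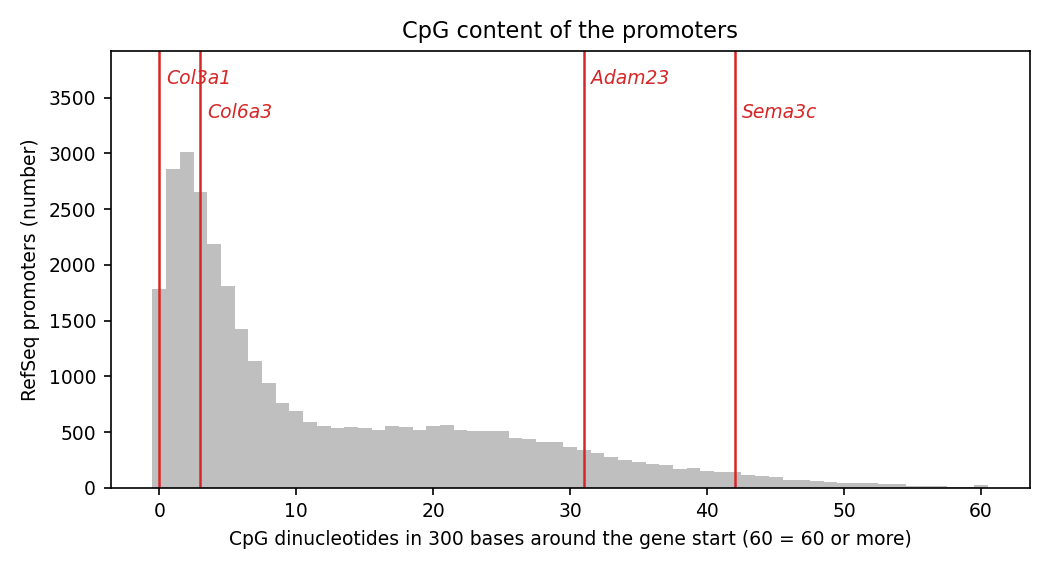
Number of RefSeq promoters (y axis) by the count of CpG dinucleotides in 300 bases around the gene start (x axis), with red lines at the promoters of Col3a1 (0), Col6a3 (3), Adam23 (31) and Sema3c (42). The collagen promoters lie in the CpG-poor peak and the other pair in the CpG-rich tail.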

How the data were processed

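Column-purified total RNA of P1 ventricles was hybridised to Affymetrix mouse genome arrays (1 colour). The deposited values are intensities per probe set, taken as linear from their range, and how the authors summarized and normalized them is not given in the sources used here. Their GeneSpring GX analysis used cutoffs on log2 fold change and p. The table analysed here holds 271 probe sets, all with a difference of at least 1.00 in size, as a cutoff on log2 fold change would leave. Whether the p cutoff was also used to draw it is not known. Its values (30.1 to 18292) were log2-transformed, with a floor of 1 that was not reached, and fitted with limma 3.58.1 (lmFit, eBayes) in R 4.3.3, without covariates. The fit was tested on simulated data. The simulated probe sets were not selected by their difference, so that test could not show what the selection does to estimates and SE. Estimates and SE are given without p-values, since the probe sets were selected on the same arrays, and an SE from selected probe sets can be too small. The number of arrays limits the precision. Gene names came from the platform annotation, updated by gene number in RefSeq (GRCm38.p6), which held all 253 probe sets with 1 gene. There were 3 with several genes and 15 with none, which were left unnamed. The brightest probe set stood for a gene. Genes named are the 6 genes, list members in the table and the gene with the most similar pattern to each of the 6, and others are marked as chosen after their values were seen. The genes and lists were chosen with earlier results of these data known. Same-numbered arrays of both groups correlated at -0.02, 0.01 and 0.08 in their deviations from the group means, so the numbers were not taken to pair them. Python 3.11.15 with pandas 2.3.3 was used for counts and sequences. The alternatives were other scalings (median centring, quantile normalization), an offset of 50, the replicate number as a block, trended and robust eBayes, the ratio of mean intensities, leaving out each array, the dimmest 25% of probe sets or those ending in _s_at or _x_at, and the mean over the probe sets of a gene.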

Additional observations from a re-analysis of the deposited data

How the results depend on the processing

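The 4 lower and 2 higher genes kept their direction under every alternative that retained them. Groups that do not overlap keep their order with an offset or with arrays left out. Centring moved every difference by the same 0.54, less than the size of any. Of the alternatives, only quantile normalization could have reversed a direction, so the others are no check of it. With each array centred on its median the differences were -1.64 for Col3a1, -1.55 for Col6a3, -2.23 for Spon2, -2.34 for Sema3c, 0.75 for Ncam1 and 0.84 for Adam23. After quantile normalization they were -1.73, -1.65, -2.12, -2.41, 0.78 and 1.04 in the same order. An offset of 50 before the logarithm gave -0.96 for Col6a3, -1.10 for Spon2, -1.49 for Sema3c, 1.08 for Ncam1 and 0.80 for Adam23. By construction an offset shrinks the change of dim probe sets most. The number of genes at least 2-fold higher, 2 as deposited, was 0 with median centring, 1 after quantile normalization and 1 with the offset, and the number at least 2-fold lower, 4 as deposited, was 3 with the offset. Leaving out the dimmest 25% of probe sets removed Spon2 and Adam23, which left 1 higher gene (of any size, and at least 2-fold) and 3 lower genes. Leaving out each array in turn gave -1.14 to -1.03 for Col3a1, -1.07 to -0.93 for Col6a3, -1.80 to -1.58 for Spon2, -1.91 to -1.64 for Sema3c, 1.26 to 1.33 for Ncam1 and 1.28 to 1.47 for Adam23, with 4 genes lower and 2 higher each time and 3 to 4 at least 2-fold lower, Col6a3 being the one that changed side. Shares of the whole table at 2-fold were not counted with the offset, without the dimmest 25% or with arrays left out. Whether the changes in count under these settings are particular to the genes described here is thus not known. With the replicate number as a block the differences stayed as they were (Col3a1 -1.10), with an SE of 0.08 to 0.18. Of the 3 numbers, 1 had its closest array in the other group under the same number. Whether dim values are above background, and whether the median shift of 0.54 is a matter of scaling, cannot be told from selected probe sets.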
